A study of Homo sapiens with 7 samples.

Results

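Stretches of the human genome at a pair of genome maintenance genes, one beside MCPH1 and one inside TIMELESS, were followed site by site through a lentiviral massively parallel reporter assay (lentiMPRA) in C4-2B cells. The assay integrates candidate regulatory sequences into the genome of the cells, each driving a barcoded transcript, and sets the barcode reads in RNA against those in genomic DNA (gDNA). C4-2B is an established human prostate cancer line of the LNCaP lineage. The study had 1 library that paired barcodes with candidate sequences, 3 gDNA libraries and 3 RNA libraries from untreated, transduced cells, with gDNA and RNA taken 48 hours after transduction.

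Activity came from 2 tables of the authors, 1 setting mutant against wild-type sequence (1025 constructs) and 1 setting wild-type against scrambled sequence (358 constructs). The members were all constructs whose names place them in either region, 20 of 1383, of which 14 belong to MCPH1 and 6 to TIMELESS. Both regions were selected on their measured estimates in these tables, above all those of wild-type against scrambled sequence, so the values below are a description and no test of these regions was made. A construct's estimate is read as a log odds ratio (natural log, RNA to gDNA), so a value above 0 means more reporter RNA for the first sequence of the comparison. The error after each ± is the standard error, computed as the estimate divided by its z, and a fold is a fold of odds. Calls of higher or lower are those with an adjusted p below 0.05 from the authors. The tables hold 1 estimate per construct and no value per library, so the depth and the spread among the 3 replicates are unknown.

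MCPH1 encodes microcephalin, a protein with BRCT domains that takes part in the DNA damage response and holds back premature chromosome condensation, and its loss causes primary microcephaly. TIMELESS works with its partner TIPIN at the replication fork, where the pair stabilises the fork and helps pass the signal of stalled replication from ATR to CHK1. Both proteins therefore belong to the machinery that keeps the genome intact while cells copy and divide it. The regions are named by these genes for their position, and that name does not state that they control them.

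The MCPH1 region spans 1246 bp (hg38, chr8:6648807-6650052). It starts 299 bp past the end of the MCPH1 gene body, which runs from 6406627 to 6648508. The whole region lies inside the gene body of MCPH1-AS1, a long non-coding RNA gene annotated from 6615603 to 6708209. No other gene of the RefSeq table used here lies within 25000 bp of it. The TIMELESS region spans 1143 bp (hg38, chr12:56447920-56449062) and lies wholly inside the TIMELESS gene, which runs from 56416363 to 56449426 on the minus strand. Its nearer edge is 364 bp downstream of the annotated transcription start at 56449426, so it falls at the 5′ end of the gene. The 3′ end of MIP, which encodes the lens water channel aquaporin 0 and also lies on the minus strand, is 440 bp beyond that edge. Exons and introns were not resolved, because only gene bodies were used.

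Sites were numbered along the chromosome within each region. The MCPH1 region had 9 sites, of which sites 1 to 8 fell within 151 bp and site 9 lay 293 bp further on. The TIMELESS region had 4 sites within 260 bp, with sites 1 and 2 only 8 bp apart. All 13 changes were single-base substitutions, 5 transitions and 4 transversions at MCPH1 and 2 of each at TIMELESS. A wild-type construct carries the name of the site that its mutant counterpart changes, and how far it reaches around the site is not given in the sources used here. Both tables held a construct for 5 of the 9 MCPH1 sites and for 2 of the 4 TIMELESS sites.

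Every wild-type construct of the MCPH1 region drove more reporter RNA than scrambled sequence. By the authors' deposited table all 6 were called higher, where 34.1% of all wild-type constructs were, and their median estimate was 1.75 against 0.01 over the whole table. Odds were from 1.70- to 30.8-fold those of scrambled sequence. Among the 42 regions with at least 4 wild-type constructs, the MCPH1 region had the highest median and the next region stood at 1.11. It was the 1 region of the 42 in which every construct was called higher, while 32 of them held calls in both directions. Among regions with fewer constructs, one near SLC25A12 had a higher median of 2.04, and its 2 wild-type constructs were called higher.

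With their values in view, the 6 MCPH1 wild-type constructs could be sorted into 3 steps whose 95% intervals did not overlap. These intervals cover the model's error alone, so the steps are a description. The top step held site 7 at 3.43 ± 0.55 in the authors' deposited table, with sites 2 and 3 beside it at 3.04 ± 0.34 and 2.16 ± 0.28. Odds at these 3 sites were 30.8, 20.8 and 8.63 times those of scrambled sequence, and their intervals overlapped each other. Site 1 formed the middle step, where the authors' deposited table gave 1.33 ± 0.06, which is 3.80-fold, with an interval of 1.22 to 1.45. The lowest step held sites 8 and 5 at 0.70 ± 0.19 and 0.53 ± 0.15 in the authors' deposited table, which is 2.02- and 1.70-fold. The step did not follow position along the region. Sites 1 and 2 lie 9 bp apart and differed by 1.70, a 5.48-fold step, in the authors' deposited table, while site 7 stood 18.2-fold above site 5 and 15.2-fold above site 8, its neighbours in the same table. Wild-type pairs at most 10 bp apart in other regions had intervals apart in 51.3% of 39 cases, with a median difference of 0.37.

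Precision also differed among these constructs, with standard errors from 0.06 to 0.55. The 3 highest MCPH1 wild-type estimates had large standard errors for the authors' deposited table, whose median was 0.11, and 318, 301 and 343 of its 358 constructs had smaller ones than sites 2, 3 and 7. The error at site 1 was among the smaller ones, with 34 constructs below it. In the authors' deposited table the intervals of sites 2, 3 and 7 began at 2.37, 1.61 and 2.34, above the upper bound of site 1. The steps were formed from these same intervals, so this gives them no further support.

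Mutations in the MCPH1 region moved its activity in both directions. By the authors' deposited table, 4 of the 8 mutants exceeded wild-type sequence, 3 fell below it and 1 was not called, where 29.5% of all mutants were called higher and 27.1% lower. Their median estimate was 0.25, against 0.02 over the whole table, and this median lay between values from -1.57 to 2.57. That span of 4.14 in the authors' deposited table was the second largest among 40 regions with at least 6 mutants, whose median span was 1.49. Of those 40 regions 35 held mutant calls in both directions. Weighted by the inverse squared error, the MCPH1 mutants averaged -0.11, so their median has no settled direction.

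The mutant at site 8 gained most, and the authors' deposited table put it at 2.57 ± 0.23, 13.0-fold the odds of wild-type sequence (adjusted p = 2.17e-27). Its interval of 2.12 to 3.01 overlapped that of no other MCPH1 mutant. Further gains in the authors' deposited table were 0.87 ± 0.20 at site 4, 0.73 ± 0.12 at site 5 and 0.51 ± 0.16 at site 6. These gains of 2.39-, 2.07- and 1.66-fold at 3 sites in a row could not be told apart by their intervals.

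Loss of activity was largest for the mutant at site 3, which the authors' deposited table put at -1.57 ± 0.11, 4.81-fold below wild-type sequence (adjusted p = 1.83e-43). Only 2 mutants of the 1025 in the authors' deposited table had a smaller p. Site 9, far from the others, had an estimate of -0.95 ± 0.17 by the authors' deposited table, a 2.58-fold loss. A smaller loss, -0.37 ± 0.15 or 1.45-fold lower, was seen at site 2 in the authors' deposited table (adjusted p = 0.0282). The authors' deposited table gave -0.01 ± 0.12 for the mutant at site 1, which was not called, with an interval of -0.25 to 0.23.

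The mutants at sites 3 and 4, only 4 bp apart, had opposite effects and differed by 2.44, which is 11.5-fold, in the authors' deposited table. Of the 7 pairs of neighbouring MCPH1 mutants, 4 had intervals that did not overlap, and of the 5 pairs of neighbouring wild-type constructs 4 did. Over all other regions the intervals of neighbouring sites lay apart in 49.3% of 617 mutant pairs and 54.0% of 252 wild-type pairs, so separation between neighbours was common in both tables. Kind of change did not sort the MCPH1 mutants by direction. The 4 transitions (sites 1, 3, 4 and 8) included the largest gain and the largest loss in the region, and the 4 transversions (sites 2, 5, 6 and 9) gave 2 gains and 2 losses.

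Where both tables held a site, the mutant's activity against scrambled sequence was obtained by adding the estimates, taking the wild-type construct of the same name as the one the mutant was compared with. Both estimates then share the wild-type reads, so no error is given for the sum, and an error in the wild-type reads moves them in opposite directions. At site 8, 2.57 for mutant against wild-type and 0.70 for wild-type against scrambled sequence in the authors' deposited tables add up to 3.27, or 26.3-fold over scrambled sequence. Site 3 gave the reverse picture, with -1.57 and 2.16 in the authors' deposited tables adding up to 0.58, or 1.79-fold. Site 2, where the wild-type construct was strong as well, kept a high sum of 2.67 from the authors' deposited tables. The sums at sites 1 and 5 were 1.33 and 1.26 from the same authors' deposited tables. All 5 sums were above 0, as were all 6 wild-type estimates.

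The TIMELESS region stood at the other end of the range. By the authors' deposited table, 2 of its 4 wild-type constructs lay below scrambled sequence, where 28.2% of all wild-type constructs were called lower, and 2 were not called. By the authors' logit model 0 were called higher, where 34.1% of all wild-type constructs were. An unadjusted p under 0.05 also called 0 of the TIMELESS wild-type constructs higher. Their median estimate was -0.99 in the authors' deposited table, the lowest among the 42 regions with at least 4 wild-type constructs, against 0.01 over all constructs. Weighted by the inverse squared error, the TIMELESS wild-type mean was -0.27.

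Site 4 had the lowest TIMELESS estimate, -2.50 ± 0.47 in the authors' deposited table, with an interval of -3.41 to -1.59. For site 1 the authors' deposited table gave -1.73 ± 0.51, 5.63-fold below scrambled sequence (adjusted p = 0.00176), and its interval overlapped that of site 4. Sites 2 and 3 lay close to scrambled sequence, at -0.26 ± 0.15 and 0.36 ± 0.20 in the authors' deposited table, and neither was called (adjusted p = 0.138 and 0.106). With their values in view, the 4 sites could be sorted into a lower pair, 1 and 4, and a pair near 0, sites 2 and 3. Intervals did not overlap between the pairs, but they cover the model's error alone, so the pairs are a description. Sites 1 and 2, which are 8 bp apart, fell on opposite sides of that divide and differed by 1.47, which is 4.36-fold, in the authors' deposited table. In the other regions, wild-type constructs at sites at most 10 bp apart differed by a median of 0.37 over 39 pairs. Of these pairs, 51.3% had intervals that lay apart. Both low constructs had large errors, and 341 and 337 of the 358 wild-type constructs in the authors' deposited table had smaller ones than sites 1 and 4.

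Only sites 1 and 2 of TIMELESS had mutants, and their effects were opposite. The authors' deposited table put the mutant at site 1 above wild-type sequence at 2.10 ± 0.54, which is 8.13-fold (adjusted p = 0.00033), with an interval of 1.03 to 3.16. At site 2 the mutant was lower than wild-type, and the authors' deposited table gave -0.67 ± 0.22, a 1.95-fold loss (adjusted p = 0.00473), with an interval of -1.09 to -0.24. Under Bonferroni adjustment both TIMELESS mutant calls ended, as did those of the TIMELESS wild-type construct at site 1, the MCPH1 mutants at sites 2 and 6 and the MCPH1 wild-type constructs at sites 5 and 8. The change at TIMELESS site 1 was a transversion and that at site 2 a transition. These neighbouring mutants differed by 2.76, which is 15.9-fold, in the authors' deposited table. For comparison, mutants at sites at most 10 bp apart in the other regions differed by a median of 0.47 over 142 pairs. Of those pairs, 46.5% had intervals that lay apart. The MCPH1 pairs this close differed by 2.44 at sites 3 and 4 and by 0.36 at sites 1 and 2 in the authors' deposited table. A large error went with the TIMELESS mutant at site 1, and 993 of the 1025 mutants in the authors' deposited table had a smaller one.

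Added to the wild-type values, the mutant values reversed the order of the 2 TIMELESS sites. At site 1, 2.10 for mutant against wild-type and -1.73 for wild-type against scrambled sequence in the authors' deposited tables add up to 0.37, or 1.44-fold above scrambled sequence. At site 2, -0.67 and -0.26 in the authors' deposited tables add up to -0.92, or 2.52-fold below it. The mutant sum at site 1 was thus nearer to scrambled sequence than its wild-type construct, which was well below. As at MCPH1, an error in the wild-type reads moves the 2 added estimates in opposite directions, and the sums have no error.

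Both regions were also placed among the 75 regions with at least 2 constructs in each table, by the distance between their median mutant and median wild-type estimates. Nearest to MCPH1, at a distance of 0.59, was a region 882 bp from SLC25A12, the gene of a mitochondrial aspartate-glutamate carrier (chr2:171895126-171899252), with medians of -0.25 for mutants and 2.04 for wild-type constructs in the authors' deposited tables. Regions inside the spliceosome gene SF3A1 and 13845 bp from MACIR followed at distances of 0.63 and 0.90. Nearest to TIMELESS, at 0.45, was a region inside ATXN2, the gene of the RNA-binding protein ataxin 2 (chr12:111466359-111466958), with medians of 1.00 for mutants and -0.64 for wild-type constructs in the authors' deposited tables. A region 984 bp from FAM167B and one inside FDPS, a gene of isoprenoid synthesis, followed at 0.51 each. The TIMELESS mutant median of 0.71 used here lies between opposite effects, 2.10 and -0.67. In the ATXN2, FAM167B and FDPS regions, with 2 to 3 mutants each, 0 mutants were called lower, where 27.1% of all mutants were. Those regions were picked for medians close to those of TIMELESS, so this count follows in part from the choice. The regions nearest to MCPH1 and TIMELESS in this sense had 2 to 5 constructs per table.

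Of 90 gene names from the DNA damage response, replication and mitosis looked up across all regions, MCPH1 and TIMELESS were the only 2 nearest to or overlapping a region in the wild-type table. The mutant table held 4 mutants in 2 further regions of this list. By the authors' deposited table, 1 of these 4 rose, 1 fell and 2 did not pass the threshold, with estimates from -1.03 to 0.47. Shares of 29.5% higher and 27.1% lower over all mutants put these counts near the background.

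The z values of the authors' deposited tables had a robust SD of 3.92 for mutants and 4.12 for wild-type constructs, and with z divided by that spread 1 call was kept among the 20 constructs, that of the MCPH1 wild-type construct at site 1.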

How the data were processed

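The authors deposited 2 tables of comparisons, mutant against wild-type and wild-type against scrambled sequence, from 3 gDNA and 3 RNA libraries of transduced C4-2B cells. The submitters' processing notes list Bowtie2 and hg38 and give neither a version nor what each was used for. The estimate that the authors deposited comes from a logit model and is taken as a natural log, per the file headers. A z score and a p-value with its adjusted q-value were deposited by the authors beside it. Both were recomputed and matched, the p-value as the normal tail of z on both sides and the q-value as Benjamini-Hochberg over the table's rows. Direction was read from the way the tables are named. The sources used here do not give barcode filters, construct length and placing or the scrambled sequence. Depth is unknown.

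Regions were read from construct names, with starts raised by 1 base to count from 1. The standard error is the estimate divided by z, and 95% intervals are normal intervals from it, which cover the model's error alone. Estimates beyond 10 in size (13 mutant and 5 wild-type, none at MCPH1 or TIMELESS) were left out of region ranks, neighbour pairs and likeness. Genes came from a RefSeq table of GRCh38.p14. Base changes and exact positions are not printed. All constructs of both regions were described. For likeness, the rule named the 3 regions nearest to each by Euclidean distance between medians. The regions, lists, settings and the limit of 10 bp for close sites were chosen with earlier results of these data known, and the genes of the list's other regions are not named. Alternatives were unadjusted p, adjusted p under 0.01, Bonferroni adjustment, z scaled by its robust SD, estimates beyond 10 left out, weighted means and medians without 1 construct. Code was tested on simulated data. Python 3.11.15, pandas 2.3.3, numpy 2.4.6 and scipy 1.17.1 were used.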

Additional observations from a re-analysis of the deposited data

How the results depend on the processing

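An unadjusted p under 0.05, or leaving out estimates beyond 10 in size, changed no call among the 20 constructs. An adjusted p under 0.01 ended 1 call and Bonferroni adjustment 7. The Bonferroni adjustment left 0 TIMELESS mutants called higher, 0 called lower and 1 TIMELESS wild-type construct called lower. With z scaled by its robust SD 16 calls ended, leaving 0 MCPH1 mutants called higher or lower, 0 TIMELESS mutants called higher or lower, 1 MCPH1 wild-type construct called higher and 0 TIMELESS wild-type constructs called lower. Weighted by the inverse squared error, the mean mutant estimate was -0.11 at MCPH1 and -0.29 at TIMELESS, against medians of 0.25 and 0.71, so the direction of the mutant medians is not settled. The weighted wild-type mean was 1.28 at MCPH1 and -0.27 at TIMELESS, against medians of 1.75 and -0.99. In the weighted means constructs with small errors count most, and at both regions the wild-type estimates furthest from 0 had the larger errors. Leaving out 1 construct at a time gave mutant medians from -0.0066 to 0.51 at MCPH1 and from -0.67 to 2.10 at TIMELESS, where each rests on 1 mutant, and wild-type medians from -1.73 to -0.26 at TIMELESS. No paired analysis was possible because the tables hold no value per library. Without depth or replicate values, the precision of a construct rests on the authors' model alone.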
